A study of Homo sapiens with 8 samples.

Results

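The neutrophil-attracting CXC chemokine genes of the cluster on chromosome 4 are 6 of the 27945 genes in the deposited count table, and they were chosen by symbol: CXCL1, CXCL2, CXCL3, CXCL5, CXCL6 and CXCL8. CXC chemokines are small secreted proteins that draw white blood cells along a gradient. The ligands of this cluster act on neutrophils through the receptor CXCR2, and CXCL6 and CXCL8 also act through CXCR1. Fibroblasts make them when IL-1 or TNF activates the transcription factor NF-kappaB, and senescent fibroblasts are known to secrete them.

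The study asked how METTL3 and METTL14, subunits of the enzyme complex that methylates adenosines in RNA, bear on transcription in senescent cells. It used IMR90 cells, primary human lung fibroblasts, in which an oncogenic RAS fused to the estrogen receptor is switched on by 4-hydroxytamoxifen (4-OHT). The study's methods give 100 nM 4-OHT and a harvest on day 6 for this model, without saying so for these libraries. fastGRO-seq lets polymerases already on the DNA extend their RNA in isolated nuclei with a tagged nucleotide, so the reads come from nascent RNA and not from the pool of finished mRNA.

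There were 8 libraries in 4 groups of 2. The control cells were labelled wild type and untreated for senescence, with no hairpin named. The other groups were senescent cells with a non-targeting hairpin (shControl), a hairpin against METTL3 (shMETTL3) or a hairpin against METTL14 (shMETTL14), delivered by lentivirus with puromycin selection. One hairpin per gene was used, so an effect of the hairpin's sequence and of its target cannot be told apart. Senescence and hairpin infection cannot be told apart in a comparison with the control cells. The labels give replicate numbers alone, and the study describes its fastGRO-seq experiments as biologically independent.

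The control libraries held 18494186 and 18781376 counts, the shControl libraries 20306299 and 19976761, the shMETTL3 libraries 15688334 and 14897360, and the shMETTL14 libraries 17230672 and 18074200. Ribosomal RNA genes took between 86.2% and 92.5% of these counts, which left between 1513930 and 2048475 counts per library for the other genes. The spread between the libraries of a group, as chi-square per degree of freedom over genes (1 for counting error alone), was 1.72 in control, 1.53 in shControl, 5.13 in shMETTL3 and 2.52 in shMETTL14 cells. The shMETTL3 libraries differed most from each other on this measure.

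Changes were tested gene by gene with edgeR, and a gene was called when its p-value adjusted over all 12844 genes tested was below 0.05. All 6 members passed the filter on low counts, and CXCL8 alone had at least 10 counts in every library. The other 5 passed it through the groups in which they were high, so some difference between groups was built into their being tested. The spike-in of fly nuclei that the authors added was not part of the count table, so a change common to every gene is invisible here. In bulk libraries, fewer cells transcribing a gene and less transcription per cell cannot be told apart.

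The hairpin targets were read first as a check of the labels. METTL3 had 80 and 78 counts in control, 77 and 47 in senescent shControl, 16 and 19 in shMETTL3 and 73 and 56 in shMETTL14 libraries. The shMETTL3 libraries were the lowest and did not overlap any other group (log2 fold change against shControl -2.04 ± 0.31 (SE), adjusted p 1.79e-05). METTL14 had 60 and 55 counts in control, 24 and 28 in shControl, 41 and 48 in shMETTL3 and 18 and 14 in shMETTL14 libraries. The shMETTL14 libraries were the lowest, yet their difference from shControl did not pass the threshold (-0.86 ± 0.34, adjusted p 0.0763). Against shMETTL3 cells METTL14 was lower (-1.41 ± 0.32, adjusted p 0.00101). In senescent shControl cells METTL14 was below the control group (-0.76 ± 0.28, adjusted p 0.0472), a call lost with DESeq2, with no filter on low counts, and in 6 of 8 fits that left out a library.

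The fibroblast label was checked against marker genes. All 12 of 12 fibroblast markers were tested. By counts FN1 (fibronectin) was the most abundant in every senescent library, and COL6A3 in both control libraries (12447 and 11709 against 10634 and 10136). The summed normalized counts of the 12 markers were 44494 and 41526 in control, 31625 and 33227 in shControl, 35923 and 30722 in shMETTL3 and 17019 and 20419 in shMETTL14 libraries. In senescent shControl cells 8 of these 12 were lower and 1 higher than in control (13.3% each of all genes). With shMETTL3 3 were lower and 2 higher than with shControl (11.2% and 12.3% of all genes). With shMETTL14 10 were lower and 0 higher (12% and 9.15%). Between the knockdowns 8 were lower and 1 higher with shMETTL14 (18.7% and 16.5%). Of 12 leukocyte and neutrophil markers 1 was tested, CD68, and FCGR3B, S100A8, S100A9, MPO and ELANE were at 0 in every library. CD68 had 17 and 16, 60 and 45, 42 and 26, and 49 and 42 counts in the groups in the same order. It was called higher in shControl than in control cells (2.05) and lower with shMETTL3 than with shControl (-0.84). The latter value ran from -1.30 to -0.50 with each library left out, and CD68 was not called with shMETTL14 against shControl (-0.37). The summed normalized counts of this list were 21.3 and 20.9, 82.8 and 60.1, 53.4 and 38.0, and 54.0 and 51.6. CD68 made up most of these sums, which like the members were lowest in control and highest in shControl libraries. No other gene of the list had more than 7 counts in a library (CSF1R, in shMETTL3 replicate 2). PTPRC had 0 and 2, 3 and 1, 4 and 1, and 2 and 3 counts. The part of this list in the members' change was not tested. Of 5 endothelial markers 1 was tested, TEK, with 105 and 123, 37 and 48, 49 and 68, and 13 and 26 counts. TEK was called lower in shControl than in control cells (-1.04). With shMETTL14 it was called lower than with shControl (-1.28) and than with shMETTL3 (-1.52), and it was not called with shMETTL3 against shControl (0.24). Of 6 epithelial markers 2 were tested, KRT8 and KRT18, with 26 and 28, 20 and 11, 9 and 10, and 25 and 23 counts, and 23 and 24, 25 and 15, 12 and 13, and 43 and 32 counts. Neither was called in a comparison with shControl. Both were higher with shMETTL14 than with shMETTL3 (KRT8 by 1.38 ± 0.43, adjusted p 0.0144, called in 6 of 8 fits that left out a library and not with DESeq2; KRT18 by 1.63 ± 0.38, adjusted p 0.00136, called in 8 of 8). Against control, KRT8 was lower with shMETTL3 (-1.33 ± 0.43, adjusted p 0.0144) and KRT18 higher with shMETTL14 (0.89 ± 0.34, adjusted p 0.0369), and DESeq2 called neither.

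The senescence label was checked with 4 genes. CDKN1A, which encodes the cell cycle inhibitor p21, had 459 and 426 counts in control and 726 and 744 in senescent shControl libraries, and was higher in the latter (1.12 ± 0.15, adjusted p 1.1e-06). LMNB1, for a lamin known to fall in senescence, had 83 and 83 against 11 and 15 counts and was lower (-2.28 ± 0.35, adjusted p 1.26e-05). HRAS had 388 and 386 against 511 and 527 counts and was higher (0.81 ± 0.14, adjusted p 6.56e-05). This call was lost when libraries were scaled by their size alone, a size that is mostly ribosomal RNA. The cyclin gene CCNA2 had 23 and 14 against 6 and 10 counts and was not called (-0.82 ± 0.55, adjusted p 0.301).

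In the knockdown groups these genes moved apart. HRAS had 390 and 349 counts with shMETTL3, below shControl (-0.70 ± 0.14, adjusted p 0.000536) and not called against control (0.10 ± 0.14, adjusted p 0.592). The call against shControl held in 8 of 8 fits that left out a library and was lost with library size alone (-0.09). With shMETTL14 it had 758 and 609 counts and was not called against shControl (0.23 ± 0.14, adjusted p 0.242; library size alone made this a call, at 0.59). CDKN1A had 762 and 642 counts with shMETTL3 (-0.28 ± 0.14 against shControl, adjusted p 0.169; called at -0.48 without replicate 1) and 1817 and 1498 with shMETTL14, above shControl (1.0 ± 0.14, adjusted p 6.55e-06). LMNB1 had 2 and 0 counts with shMETTL3 and 5 and 2 with shMETTL14, and CCNA2 had 3 and 5, then 0 and 2. Against shControl, LMNB1 was called lower with each hairpin and CCNA2 with shMETTL14 alone. With each library left out, LMNB1 ran from -6.92 to -2.81 with shMETTL3 and from -2.77 to -1.55 with shMETTL14. CCNA2 ran from -6.23 to -2.08 with shMETTL14, and neither shMETTL14 call was kept in every such fit. Without shMETTL3 replicate 1 the shMETTL3 count of LMNB1 is 0. Without shMETTL14 replicate 2 the shMETTL14 count of CCNA2 is 0. The ends at -6.92 and -6.23 are thus not measured folds. Whether the counts of HRAS include reads of the RAS construct was not tested, so they are no measure of its induction. How far the level of HRAS bears on the members with shMETTL3 was not tested.

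On the hg19 build the members span 358.775 kb of chromosome 4. In order of position they are CXCL8 (chr4:74606223-74609433, plus strand), CXCL6 (chr4:74702273-74704477, plus), CXCL1 (chr4:74735109-74737019, plus), CXCL5 (chr4:74861359-74864446, minus), CXCL3 (chr4:74902312-74904490, minus) and CXCL2 (chr4:74962754-74964997, minus). The gaps between neighbours in this order are 92.8, 30.6, 124.3, 37.9 and 58.3 kb. No other gene of the table overlaps a member. The annotation places a long noncoding RNA of the opposite strand over 797 bases of CXCL5. By the header of the count table reads of 1 strand were counted, and whether this kept reads of that RNA out of the counts of CXCL5 could not be read from the values. CXCL1, CXCL2 and CXCL3 are close paralogs: 9.41%, 13.6% and 9.12% of their stretches of 32 bases occur in another member, against 0.851% for CXCL5, 1.20% for CXCL6 and 0% for CXCL8. A read that lies wholly within shared sequence cannot be given to 1 gene, and how the authors treated such reads is not stated. Whether longer reads that reach past these stretches could be placed was not tested.

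Because the members moved together in several comparisons, their promoters are shown, from 250 bases before to 50 bases after the start of each gene. All 6 were matched by symbol in RefSeq sequences of GRCh38.p14: CXCL1 at chr4:73869143-73869442 (plus strand), CXCL2 at chr4:74099146-74099445 (minus), CXCL3 at chr4:74038640-74038939 (minus), CXCL5 at chr4:73998628-73998927 (minus), CXCL6 at chr4:73836428-73836727 (plus) and CXCL8 at chr4:73740319-73740618 (plus). Each is written 5′ to 3′ on the strand of its gene, and capitals mark GGAATTTCC, a form of the site that NF-kappaB binds.
CXCL1: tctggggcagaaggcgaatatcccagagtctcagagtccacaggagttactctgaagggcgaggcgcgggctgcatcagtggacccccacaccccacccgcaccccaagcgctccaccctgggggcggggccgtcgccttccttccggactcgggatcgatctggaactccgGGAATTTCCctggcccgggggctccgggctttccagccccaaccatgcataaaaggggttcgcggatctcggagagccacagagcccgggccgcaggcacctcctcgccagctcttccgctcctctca
CXCL2: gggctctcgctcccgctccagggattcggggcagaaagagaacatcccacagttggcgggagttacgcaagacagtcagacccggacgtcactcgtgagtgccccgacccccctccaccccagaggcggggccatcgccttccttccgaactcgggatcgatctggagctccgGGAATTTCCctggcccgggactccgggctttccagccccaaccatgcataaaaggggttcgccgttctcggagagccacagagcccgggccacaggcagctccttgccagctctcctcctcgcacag
CXCL3: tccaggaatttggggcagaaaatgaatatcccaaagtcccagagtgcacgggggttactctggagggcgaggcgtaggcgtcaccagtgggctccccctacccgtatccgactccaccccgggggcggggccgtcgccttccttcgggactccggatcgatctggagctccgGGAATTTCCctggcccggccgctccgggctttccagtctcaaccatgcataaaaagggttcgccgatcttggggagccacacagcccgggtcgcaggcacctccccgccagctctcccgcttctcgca
CXCL5: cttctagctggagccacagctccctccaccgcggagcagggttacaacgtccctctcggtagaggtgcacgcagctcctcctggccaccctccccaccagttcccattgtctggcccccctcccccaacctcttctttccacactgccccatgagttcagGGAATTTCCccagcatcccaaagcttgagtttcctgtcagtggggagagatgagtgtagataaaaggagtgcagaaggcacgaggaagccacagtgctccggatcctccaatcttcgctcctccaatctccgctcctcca
CXCL6: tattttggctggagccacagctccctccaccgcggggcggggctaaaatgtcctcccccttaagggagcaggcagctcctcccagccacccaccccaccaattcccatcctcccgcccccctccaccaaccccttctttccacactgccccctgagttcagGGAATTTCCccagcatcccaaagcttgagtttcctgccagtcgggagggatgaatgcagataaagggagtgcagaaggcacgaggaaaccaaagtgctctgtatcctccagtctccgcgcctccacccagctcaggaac
CXCL8: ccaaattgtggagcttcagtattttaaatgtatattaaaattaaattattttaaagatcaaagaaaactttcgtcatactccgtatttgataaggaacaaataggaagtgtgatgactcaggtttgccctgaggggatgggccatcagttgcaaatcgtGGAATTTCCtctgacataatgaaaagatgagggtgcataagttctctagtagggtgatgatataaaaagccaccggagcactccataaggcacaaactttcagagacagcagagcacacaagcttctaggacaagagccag
GGAATTTCC, searched on both strands, was in 6 of 6 member promoters and in 162 of 35116 promoters (0.461%). It began 78, 77 and 78 bases before the start in CXCL1, CXCL2 and CXCL3, and 90, 89 and 91 bases before it in CXCL5, CXCL6 and CXCL8. None of the other matches overlapped it. TGANTCA, a form of the AP-1 site, was in CXCL8 and in 7.71% of all promoters. TTGCNNAA, a form of the C/EBP site, was in CXCL2 and in 10.5%. The GC box GGGCGG was in CXCL1, CXCL3 and CXCL6 and in 45%, and the TATA box TATAAA was in CXCL8 and in 11.5%. A match describes letters in this window and does not show that a factor binds there. The motifs were chosen after these promoters were seen, so the match in 6 of 6 is a description and carries no test. Promoters alike in sequence are also not separate matches. Promoters were compared without gaps, each pair at the shift of up to 10 bases that gave the most identical bases. Those of CXCL5 and CXCL6 were identical at 82.7% of bases at a shift of 1 base (33.3% with no shift), and those of CXCL1 and CXCL3 at 68.7% with no shift. CXCL2 shared 51.7% with CXCL1 and 48.3% with CXCL3, again with no shift, and the other pairs shared between 26.3% and 35.3%.

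The first comparison asks what RAS-induced senescence changes. All 6 members were higher in senescent shControl than in control cells, as were 13.3% of all genes tested (1711 of 12844), while 0 members and 13.3% of all genes (1702) were lower. CXCL8 had 38 and 41 counts in control and 4396 and 4004 in senescent shControl libraries, CXCL5 had 6 and 5 against 2402 and 2164, and CXCL1 had 11 and 9 against 844 and 746. Every shControl library lay far above both control libraries for these 3 genes. CXCL3 had 0 and 3 against 284 and 254 counts, CXCL2 had 0 and 4 against 60 and 53, and CXCL6 had 3 and 0 against 44 and 35. These 3 were close to absent from control cells, and their groups did not overlap either.

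The log2 fold change of CXCL5 was 9.05 ± 0.32 (adjusted p 2.81e-18), that of CXCL8 was 7.12 ± 0.21 (adjusted p 4.67e-20), and that of CXCL1 was 6.68 ± 0.23 (adjusted p 2.81e-18). As folds these are 530-fold, 139-fold and 103-fold. CXCL2 rose by 5.11 ± 0.56 (adjusted p 5.61e-08), and by 4.17 without control replicate 1. Without control replicate 2 its control count is 0, and the call held. With 3 counts over the control group, CXCL3 was higher by a ratio of 234 (95% interval 79.7 to 1139, adjusted p 1.66e-14) and CXCL6 by a ratio of 34.4 (11.3 to 170, adjusted p 1.57e-06). These intervals are exact conditional binomial intervals and cover counting error only. Without control replicate 1 the ratio of CXCL3 was 118, and without control replicate 2 that of CXCL6 was 17.0. Without the other control library each has 0 control counts, and the calls held. The median log2 fold change of the members was 6.90, and that of all genes tested was -0.03.

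**Figure D1:**
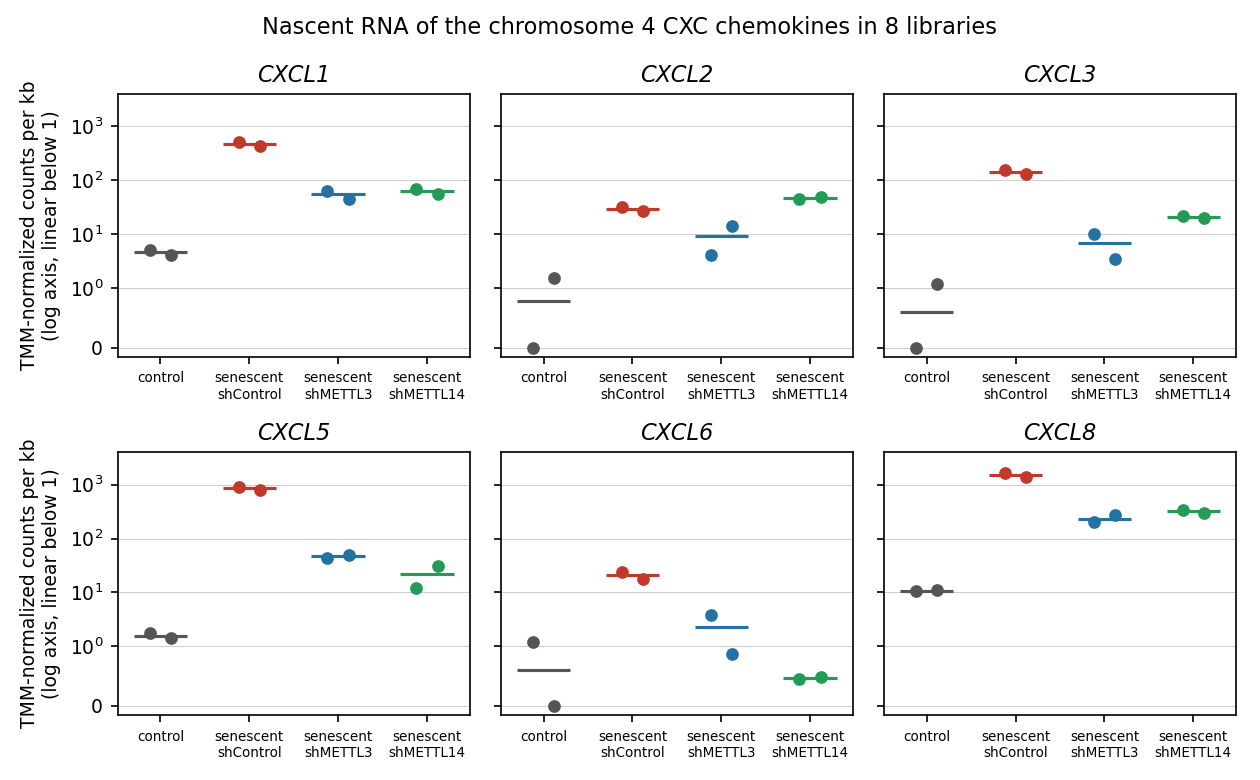
Normalized counts per kilobase of gene length of the 6 members (log scale) in each of the 8 libraries, with group means. Control libraries are lowest for all members except CXCL6, and the shMETTL14 libraries lie above the senescent shControl libraries for CXCL2 alone.

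Per kilobase, the order of levels in senescent shControl cells was CXCL8 (1504 ± 163 normalized counts per kilobase, SD, n = 2), CXCL5 (850 ± 98.8), CXCL1 (479 ± 62.0), CXCL3 (142 ± 17.2), CXCL2 (29.0 ± 3.77) and CXCL6 (20.6 ± 4.19). No neighbours in this order overlapped in their libraries, and CXCL2 and CXCL6 were the closest pair for their spread. In control cells CXCL8 was first with 10.8 ± 0.452 and CXCL1 second with 4.60 ± 0.705. CXCL5 followed with 1.57 ± 0.220, and CXCL2 (0.776), CXCL6 (0.603) and CXCL3 (0.600) could not be ordered at 3 or 4 counts each.

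The members together gave 58 and 62 counts in control libraries, which is 0.00311% and 0.00326% of the counts outside ribosomal RNA (exact 95% intervals 0.00236% to 0.00402% and 0.00250% to 0.00418%). In senescent shControl libraries they gave 8030 and 7256 counts, or 0.530% and 0.460% (0.519% to 0.542% and 0.450% to 0.471%). With shMETTL3 the shares were 0.0505% and 0.0587% (0.0473% to 0.0539% and 0.0555% to 0.0621%), and with shMETTL14 they were 0.0861% and 0.0792% (0.0817% to 0.0907% and 0.0749% to 0.0837%). These intervals cover counting error only and not the spread between libraries: those of the shControl libraries do not meet, nor do those of the shMETTL3 libraries. Both libraries of each knockdown group lay between the control and the senescent shControl libraries.

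The second comparison asks what METTL3 knockdown changes in senescent cells. All 6 members were lower with shMETTL3 than with shControl, as were 11.2% of all genes tested (1434), while 0 members and 12.3% of all genes (1574) were higher. CXCL8 had 632 and 905 counts with shMETTL3, CXCL1 had 119 and 91, and CXCL5 had 132 and 164. CXCL3 had 21 and 8 counts, CXCL2 had 9 and 33, and CXCL6 had 8 and 2. Every shMETTL3 library lay below both shControl libraries for each member, and the shMETTL3 replicates differed most from each other for CXCL2, CXCL3 and CXCL6.

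With both libraries of each group, CXCL3 had the largest change with shMETTL3 (-4.42 ± 0.28, adjusted p 7.01e-12), followed by CXCL5 (-4.17 ± 0.21, adjusted p 9.05e-14). CXCL6 (-3.17 ± 0.55, adjusted p 9.99e-05), CXCL1 (-3.14 ± 0.17, adjusted p 2.04e-13) and CXCL8 (-2.68 ± 0.15, adjusted p 1.26e-12) came next. CXCL2 changed least (-1.65 ± 0.36, adjusted p 0.00138), and its call was lost with DESeq2 (-1.65, adjusted p 0.124). Without shMETTL3 replicate 1 its log2 fold change was -1.06, and without replicate 2 it was -2.81. For CXCL6 the values were -4.51 and -2.47 without those libraries, and for CXCL3 they were -5.34 and -3.85. The order of the members thus depends on the library: without replicate 2 CXCL5 (-4.29) changed more than CXCL3 and CXCL6 changed least, and without replicate 1 CXCL6 changed more than CXCL5 (-4.09). The median of the members was -3.15, and that of all genes was -0.03.

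The next comparison asks the same of METTL14. With shMETTL14, 5 of 6 members were lower than with shControl, as were 12% of all genes tested (1545), while 0 members and 9.15% of all genes (1175) were higher. CXCL8 had 1104 and 911 counts with shMETTL14, CXCL1 had 131 and 102, and CXCL5 had 37 and 92. CXCL3 had 48 and 41 counts and CXCL6 had 1 and 1. For these 5 members both shMETTL14 libraries lay below both shControl libraries. CXCL2 was the exception, with 100 and 105 counts against 60 and 53 in shControl libraries, so that its groups did not overlap and shMETTL14 was on the high side.

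CXCL5 changed by -5.30 ± 0.23 (adjusted p 3.47e-15), at -4.78 without shMETTL14 replicate 1 and -6.15 without replicate 2. CXCL1 (-2.94 ± 0.16, adjusted p 5.87e-13), CXCL3 (-2.76 ± 0.23, adjusted p 1.57e-09) and CXCL8 (-2.23 ± 0.15, adjusted p 3.09e-11) were lower as well. With 2 counts over the shMETTL14 group, CXCL6 was at a ratio of 0.0226 to shControl (95% interval 0.00270 to 0.0846, adjusted p 4.54e-06). The log2 fold change of CXCL2 was 0.70 ± 0.29 (adjusted p 0.0887). CXCL2 passed the threshold as higher without shMETTL3 replicate 1 (0.70, adjusted p 0.0131) or replicate 2 (0.69, adjusted p 0.0146), libraries outside this comparison, with library size alone as the scaling (1.05, adjusted p 0.00196), with no filter on low counts (0.69, adjusted p 0.0362) and in a fit of these groups alone (0.68, adjusted p 0.00649). The median of the members was -2.85, against 0.00 for all genes. The comparisons of shMETTL3 and of shMETTL14 share the shControl libraries, so their values are not independent.

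**Figure D2:**
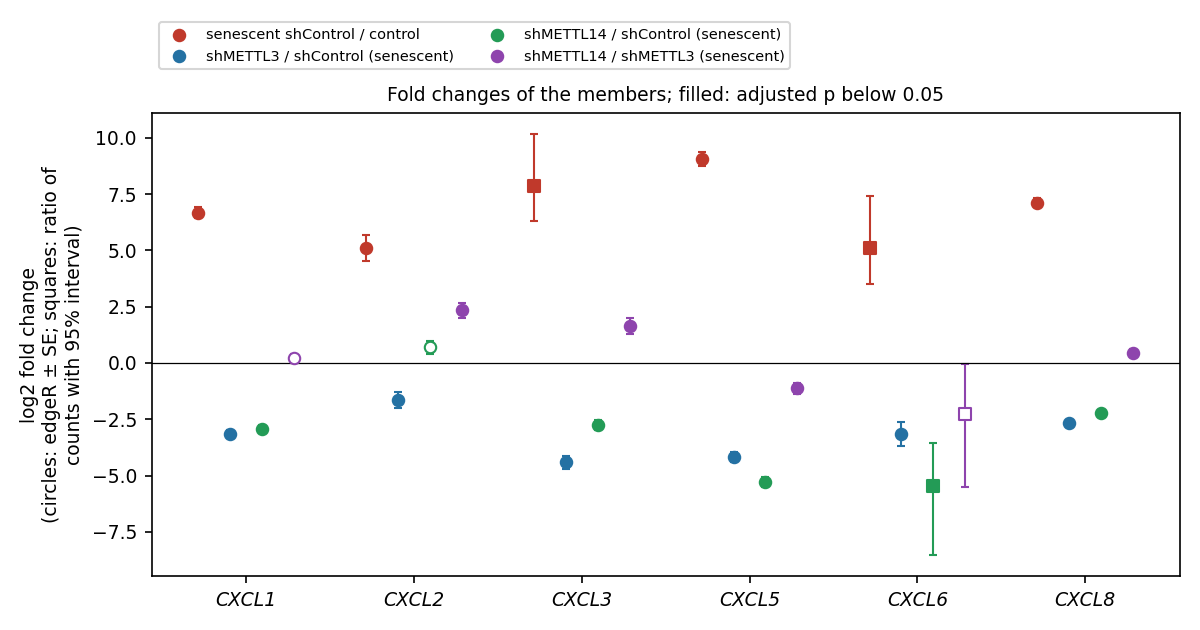
Log2 fold changes of the members in the main comparisons. Circles are edgeR estimates with SE, squares are ratios of counts with their 95% interval where a group has 1 to 3 counts, and filled marks have an adjusted p below 0.05. CXCL2 is the member whose shMETTL14 and shMETTL3 values lie on opposite sides of 0.

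Set against the mean of the senescent shControl libraries, CXCL8 stood at 13.4% and 17.8% with shMETTL3 and at 22.9% and 19.9% with shMETTL14. CXCL1 stood at 13.4% and 9.45%, then 14.3% and 11.8%. CXCL3 stood at 6.97% and 2.46%, then 15.5% and 14%. CXCL5, which encodes the ligand also called ENA-78, had its lower values with shMETTL14 (1.41% and 3.69%, against 5.16% and 5.93% with shMETTL3). CXCL6 stood at 18% and 4.17% with shMETTL3, and at 2.20% and 2.32% with shMETTL14 from 1 count in each library. CXCL2 stood at 14.2% and 48.2% with shMETTL3 and at 154% and 170% with shMETTL14.

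A direct test between the knockdowns asks where they differ. With shMETTL14, 3 members were higher than with shMETTL3, as were 16.5% of all genes (2118), and 1 member was lower, as were 18.7% of all genes (2399). CXCL2 was higher by 2.34 ± 0.34 (adjusted p 4.94e-06), or 5.08-fold, with 100 and 105 counts against 9 and 33. CXCL3 was higher by 1.66 ± 0.36 (adjusted p 0.000632) and CXCL5 lower (-1.13 ± 0.25, adjusted p 0.000736), and for these 3 genes the groups did not overlap. Without shMETTL14 replicate 1 the log2 fold change of CXCL5 was -0.61 (adjusted p 0.0451), and without replicate 2 it was -1.97. Without shMETTL3 replicate 1 that of CXCL2 was 1.76 and that of CXCL3 was 2.58, and without replicate 2 they were 3.51 and 1.10. CXCL8 was called higher (0.45 ± 0.15, adjusted p 0.0201), and this call was lost without shMETTL3 replicate 1 (0.28, adjusted p 0.157), without shMETTL14 replicate 1 (0.33, adjusted p 0.183), with library size alone (0.18, adjusted p 0.406), with DESeq2 (0.43, adjusted p 0.0541) and in a fit of these groups alone (adjusted p 0.0674).

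CXCL1 was not called between the knockdowns (0.20 ± 0.19, adjusted p 0.428), and its groups overlapped. CXCL6, at 2 against 10 counts, had a ratio of 0.208 (95% interval 0.0222 to 0.976, adjusted p 0.12). Without shMETTL3 replicate 2 it passed the threshold as lower (ratio 0.125, adjusted p 0.0396), and without replicate 1 the ratio was 0.540 (adjusted p 0.683). At this depth a difference in CXCL6 was not settled. The median of the members was 0.33, and that of all genes was 0.01.

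**Figure D3:**
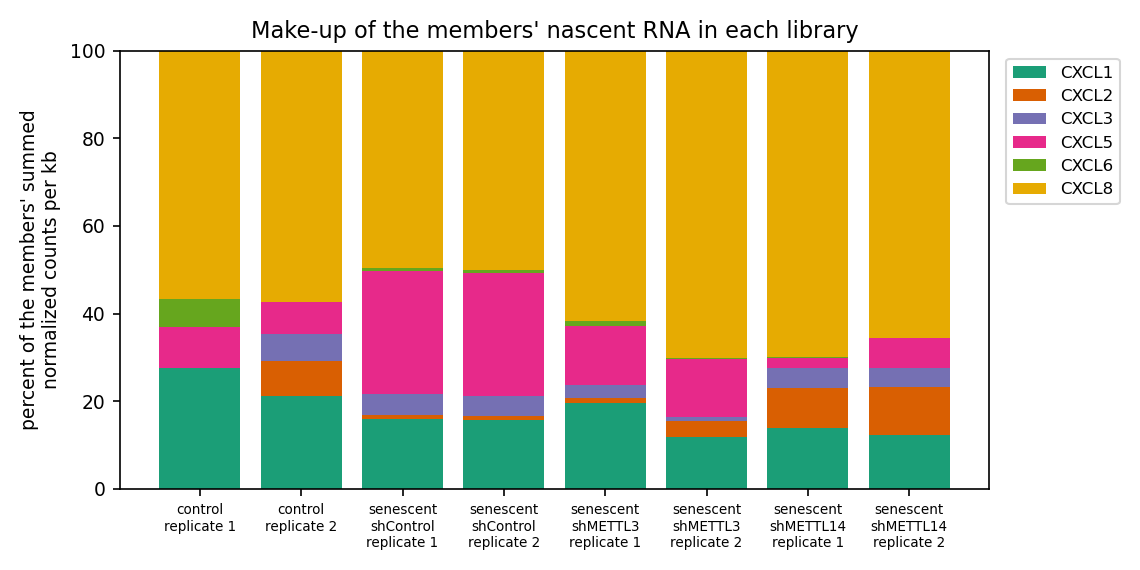
Percent of the members' summed normalized counts per kilobase held by each member in each of the 8 libraries. CXCL5 takes 28.1% of the sum in both senescent shControl libraries and 2.44% and 6.88% with shMETTL14, where CXCL2 takes 9.07% and 10.8%.

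The make-up of the members' nascent RNA differed between groups. CXCL8 held 56.6% and 57.4% of the summed normalized counts per kilobase in control, 49.5% and 50% in shControl, 61.7% and 70.1% in shMETTL3 and 70.0% and 65.5% in shMETTL14 libraries. It was the most transcribed member per kilobase in each of the 8 libraries. CXCL5 held 28.1% and 28.1% in shControl, 13.4% and 13.2% in shMETTL3 and 2.44% and 6.88% in shMETTL14 libraries. CXCL2 held 0.967% and 0.947%, 1.26% and 3.66%, and 9.07% and 10.8% in the same groups. The share of CXCL2 was thus higher in both shMETTL14 libraries than in any other senescent library. In control libraries, with 58 and 62 counts in all, the shares of CXCL2 (0% and 8.01%) rest on 4 counts.

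With shMETTL3 the order of levels per kilobase was CXCL8 (235 ± 46.4), CXCL1 (54.6 ± 13.2), CXCL5 (47.2 ± 4.65), CXCL2 (9.04 ± 6.97), CXCL3 (6.69 ± 4.53) and CXCL6 (2.29 ± 2.02). CXCL1 and CXCL5, and likewise CXCL2, CXCL3 and CXCL6, did not differ in level beyond their spread. With shMETTL14 the order was CXCL8 (321 ± 31.7), CXCL1 (62.4 ± 8.71), CXCL2 (46.9 ± 3.35), CXCL5 (21.7 ± 13.7), CXCL3 (20.9 ± 1.56) and CXCL6 (0.466 ± 0.0172). CXCL5 and CXCL3 did not differ beyond their spread there. CXCL2 thus stood below CXCL5 and CXCL3 in senescent shControl cells and above both with shMETTL14.

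Against the control cells, for which no hairpin is named, the knockdown cells still had more of most members. With shMETTL3, 5 of 6 members were higher than in control, as were 20.1% of all genes (2579), and 0 were lower, against 20.1% of all genes (2583). CXCL5 (4.88 ± 0.38, adjusted p 5.27e-11), CXCL8 (4.44 ± 0.20, adjusted p 1e-15), CXCL1 (3.55 ± 0.29, adjusted p 1.19e-10) and CXCL2 (3.46 ± 0.69, adjusted p 0.000211) were higher, and CXCL3 was at a ratio of 10.9 (95% interval 3.37 to 55.7, adjusted p 0.000541), or 5.47 without control replicate 1 and 5.77 without shMETTL3 replicate 1. CXCL6 overlapped the control group, with a ratio of 3.74 (0.964 to 21.2, adjusted p 0.141). It passed the threshold without control replicate 1 (adjusted p 0.0438) and without shMETTL3 replicate 2 (adjusted p 0.0396), while the ratio was 1.86 without control replicate 2 and 1.44 without shMETTL3 replicate 1. The calls of CXCL2 and CXCL3 held with each library left out, CXCL2 at 2.31 without shMETTL3 replicate 2 (adjusted p 0.0316). Without control replicate 2 both have 0 control counts.

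With shMETTL14, 5 of 6 members were higher than in control, as were 19.7% of all genes (2531), and 0 were lower, against 20.5% of all genes (2636). CXCL2 was higher by 5.81 ± 0.52 (adjusted p 6.6e-10), CXCL8 by 4.89 ± 0.20 (adjusted p 1.47e-16), and CXCL1 and CXCL5 each by 3.75 (SE 0.28 and 0.43, adjusted p 2.88e-11 and 8.39e-08). CXCL3 was at a ratio of 34.6 (95% interval 11.5 to 171, adjusted p 4.81e-08). Without control replicate 1 the value of CXCL2 was 4.87 and the ratio of CXCL3 was 17.5, and without control replicate 2 both have 0 control counts. That of CXCL5 was 4.31 without shMETTL14 replicate 1 and 2.91 without replicate 2. These calls held with each library left out. CXCL6 had 2 counts against 3 and is given no fold. The medians of the members were 3.50 with shMETTL3 and 4.32 with shMETTL14, or 4.89 without CXCL6 in the latter, and those of all genes were -0.05 and 0.00. Both comparisons share the control libraries with the first one.

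Among the 11 other CXC chemokine genes of the genome in the table, PF4, PF4V1 and CXCL14 were at 0 in every library. PF4, PF4V1 and PPBP, platelet chemokines, lie between the members on chromosome 4, and PPBP had 2 and 1 counts in senescent shControl libraries and 0 in the rest. CXCL10, an interferon-induced ligand of CXCR3, was the 1 gene of this list that was tested. It had 8 and 14 counts in control, 27 and 23 in shControl, 12 and 5 in shMETTL3 and 1 and 4 in shMETTL14 libraries. CXCL10 was thus highest in senescent shControl cells (1.56 ± 0.48 against control, adjusted p 0.0168) and lower with shMETTL3 (-1.75 ± 0.51, adjusted p 0.0125) and shMETTL14 (-3.42 ± 0.64, adjusted p 0.00026). The latter was -2.75 without shMETTL14 replicate 1, and -4.68 without replicate 2, where 1 count is left. DESeq2, or library size alone, ended the calls against control and with shMETTL3. So did leaving out either shControl library, control replicate 1 for the former and shMETTL3 replicate 2 for the latter. CXCL12, the ligand of CXCR4, had 13 and 10 counts in control, 2 and 4 in shControl and 0 in the other libraries, and was not tested.

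None of the 8 receptor genes had enough counts to be tested. CXCR1 and CXCR2, the receptors of the members, and ACKR1, a decoy receptor, were at 0 in every library. The highest count of a receptor gene was 7, for CXCR6 in senescent shControl replicate 1.

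Of 20 genes of the inducing signal (IL-1, TLR and TNF to NF-kappaB), 16 were tested. In senescent shControl cells 5 were higher and 1 lower than in control (13.3% each of all genes). IL1B, for the cytokine IL-1 beta, had 2 and 3 counts in control, 2161 and 2189 in shControl, 261 and 212 in shMETTL3 and 459 and 356 in shMETTL14 libraries. IL1A, for IL-1 alpha, had 2 and 5, 214 and 216, 67 and 88, and 160 and 151 counts. Both were highest in senescent shControl cells, lower in each knockdown, and lowest in control. IL1B rose by 10.07 ± 0.28 (adjusted p 1.61e-20) and IL1A by 6.27 ± 0.30 (adjusted p 2.76e-15; 5.79 to 7.03 with each library left out) in senescent shControl cells.

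With shMETTL3, 5 of these 16 genes were lower and 2 higher than with shControl (11.2% and 12.3% of all genes). IL1B (-3.41 ± 0.16, adjusted p 1.89e-14) and IL1A (-1.69 ± 0.18, adjusted p 8.34e-08) were among the lower. With shMETTL14, 4 were lower and 0 higher (12% and 9.15% of all genes). IL1B (-2.58 ± 0.15, adjusted p 1.57e-12) and IL1A (-0.63 ± 0.16, adjusted p 0.0063) were again among the lower. The IL1A call with shMETTL14 was lost with library size alone (-0.28) and with DESeq2, and without senescent shControl replicate 1 or shMETTL14 replicate 1. IL1R1, the receptor of both cytokines, had 230 and 277, 175 and 190, 121 and 90, and 132 and 123 counts, and was lower with shMETTL3 (-1.0 ± 0.18, adjusted p 0.000131) and shMETTL14 (-0.68 ± 0.17, adjusted p 0.00544). Library size alone ended both IL1R1 calls (-0.40 and -0.33), and leaving out senescent shControl replicate 2 ended the latter. With that scaling the list had 2 lower and 6 higher genes with shMETTL3, and 2 lower and 5 higher with shMETTL14. Between the knockdowns 4 genes were higher and 2 lower with shMETTL14 (16.5% and 18.7% of all genes). Against control, 7 were higher and 6 lower with shMETTL3 (20.1% each), and 7 were higher and 2 lower with shMETTL14 (19.7% and 20.5%). TNF had 2 and 1 counts with shMETTL14 and 0 elsewhere.

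**Figure D4:**
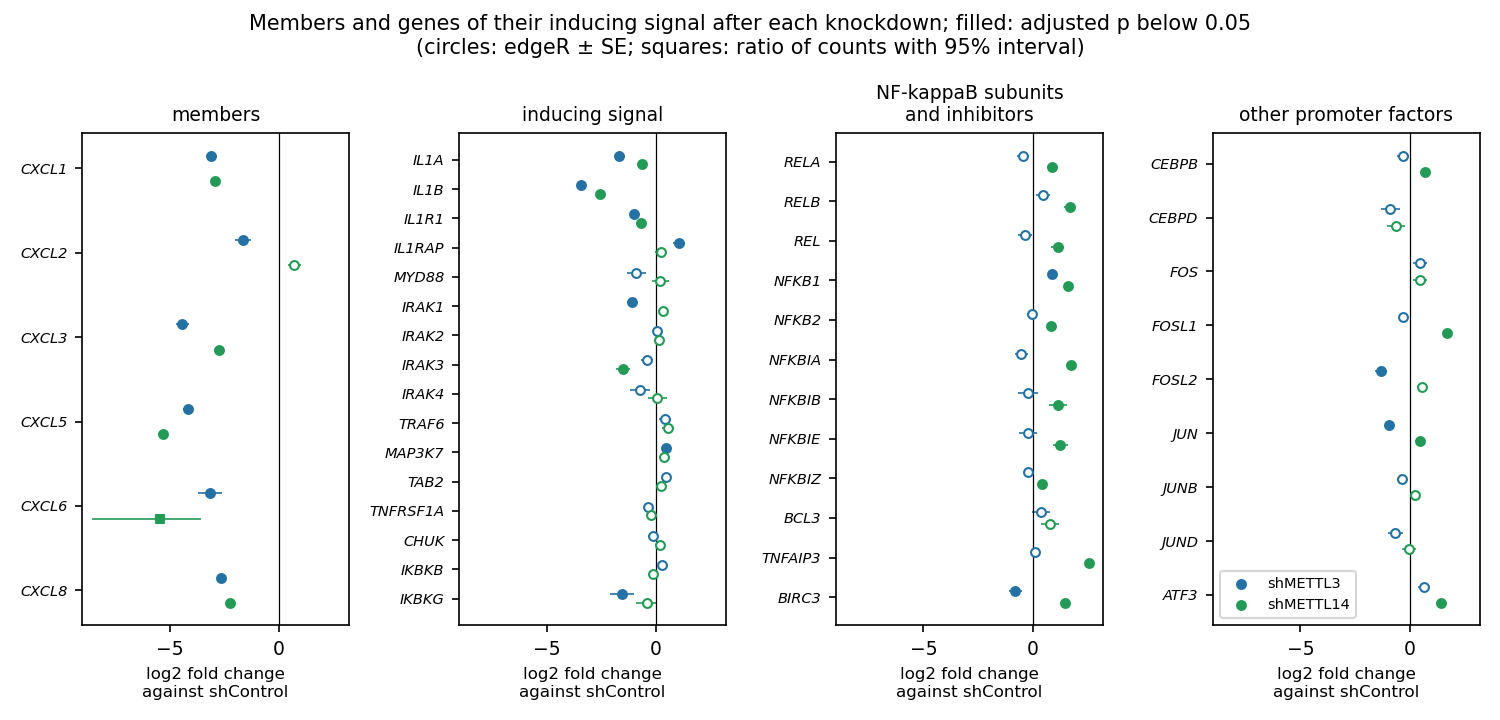
Log2 fold changes against senescent shControl cells with shMETTL3 (blue) and shMETTL14 (green) for the members and for the tested genes of the lists of the inducing signal, NF-kappaB and other promoter factors. Bars are SE, or the 95% interval of the ratio of counts for CXCL6 with shMETTL14, and filled marks have an adjusted p below 0.05. With shMETTL14, 11 of 12 NF-kappaB genes lie above 0 with an adjusted p below 0.05, and 5 of 6 members lie below 0. Of all genes tested, 9.15% were called higher and 12% lower in this comparison.

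The genes of the list of NF-kappaB subunits and inhibitors, which also holds BIRC3, were all tested, 12 of 12. In senescent shControl cells 6 were higher and 0 lower than in control (13.3% each of all genes). With shMETTL3, 1 was higher and 1 lower than with shControl (12.3% and 11.2% of all genes). With shMETTL14 11 were higher and 0 lower (9.15% and 12%). In the direct test 11 were higher with shMETTL14 than with shMETTL3 and 0 lower (16.5% and 18.7%). Against control, 5 were higher and 1 lower with shMETTL3 (20.1% each). There, 11 were higher and 0 lower with shMETTL14 (19.7% and 20.5%). The list had a median of 0.84 for shControl against control, -0.21 for shMETTL3 and 1.20 for shMETTL14 against shControl, and 1.35 between the knockdowns, while those of all genes lay between -0.03 and 0.01. The count of 11 higher with shMETTL14 was 7 with DESeq2, 6 and 7 without senescent shControl replicate 1 and replicate 2, and 5 without shMETTL14 replicate 1, and 0 were lower in each of these. With library size alone 12 were higher and 0 lower with shMETTL14, 3 higher and 0 lower with shMETTL3, and 3 higher and 3 lower in shControl against control.

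TNFAIP3, which encodes the inhibitor A20, had 26 and 40 counts in control, 126 and 132 in shControl, 124 and 200 in shMETTL3 and 964 and 741 in shMETTL14 libraries. Its shMETTL14 libraries lay above all others (2.56 ± 0.17 against shControl, adjusted p 2.13e-11), while its shMETTL3 and shControl libraries overlapped (0.10 ± 0.19, adjusted p 0.737; library size alone made this a call, at 0.73). NFKBIA, for the inhibitor I-kappaB alpha, had 43 and 33, 54 and 73, 70 and 32, and 277 and 203 counts. It was higher with shMETTL14 (1.75 ± 0.24, adjusted p 3.24e-06) and was not called with shMETTL3 (-0.52 ± 0.28, adjusted p 0.189), except as lower without shMETTL3 replicate 1 (-1.27). NFKB1, for the subunit p50, had 172 and 169, 223 and 198, 409 and 506, and 763 and 670 counts, and was higher with shMETTL3 (0.90 ± 0.14, adjusted p 4.12e-05) and shMETTL14 (1.60 ± 0.14, adjusted p 4.26e-09). BIRC3, a ubiquitin ligase of the TNF receptor complex, had 16 and 21, 58 and 39, 24 and 41, and 176 and 127 counts. It was higher with shMETTL14 (1.47 ± 0.24, adjusted p 4.02e-05). With shMETTL3 it was at the edge of the threshold (-0.80 ± 0.29, adjusted p 0.0467), a call lost with library size alone (-0.17), with DESeq2 and without shMETTL3 replicate 1 (-0.53), among other settings.

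Of 10 genes for other factors of chemokine promoters (C/EBP and AP-1 proteins), 9 were tested. In senescent shControl cells 3 were higher and 1 lower than in control (13.3% each of all genes). With shMETTL3, 0 were higher and 2 lower than with shControl (12.3% and 11.2% of all genes). With shMETTL14 4 were higher and 0 lower (9.15% and 12%). With library size alone the list had 1 higher and 4 lower, 2 and 0, and 7 and 0. The lower pair with shMETTL3 was JUN and FOSL2 (-0.95 ± 0.16, adjusted p 8.85e-05, and -1.30 ± 0.29, adjusted p 0.0014), and neither remained called with library size alone. FOSL1, an AP-1 subunit, had 173 and 146, 74 and 109, 95 and 77, and 353 and 309 counts in control, shControl, shMETTL3 and shMETTL14 libraries, and was higher with shMETTL14 (1.69 ± 0.18, adjusted p 5.49e-08). JUN, its partner, had 210 and 234, 285 and 273, 131 and 207, and 474 and 403 counts. Its libraries were highest with shMETTL14 and lowest with shMETTL3 among the senescent groups, and the call with shMETTL14 against shControl (0.49 ± 0.15, adjusted p 0.0202) was lost with DESeq2 and without either shControl library or shMETTL14 replicate 1. In the direct test 6 were higher with shMETTL14 than with shMETTL3 and 0 lower (16.5% and 18.7% of all genes). Against control, 1 was higher and 4 lower with shMETTL3 (20.1% each), and 5 were higher and 1 lower with shMETTL14 (19.7% and 20.5%).

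Around the members, 18 other genes lie within 1 Mb, of which 5 were tested and 5 were at 0 in every library. In senescent shControl cells 3 of the 5 tested were higher than in control and 0 lower (13.3% each of all genes). EREG, for the growth factor epiregulin, had 71 and 90 counts in control, 977 and 895 in shControl, 530 and 712 in shMETTL3 and 1214 and 982 in shMETTL14 libraries. It was higher in senescent shControl than in control cells (3.93 ± 0.18, adjusted p 8.14e-16) and lower with shMETTL3 than with shControl (-0.82 ± 0.15, adjusted p 0.000154), the latter call being lost with library size alone (-0.19). AREG, for the related amphiregulin, had 0 and 0 counts in control and 11 and 5 in shControl libraries, at least 6.96-fold higher against a floor of 3 counts over the control group (adjusted p 0.00122). MTHFD2L, a mitochondrial folate enzyme gene, had 43 and 50 against 134 and 120 counts and was higher (1.83 ± 0.20, adjusted p 7.43e-08).

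These 3 neighbours lie on the side of CXCL2, and ANKRD17 and COX18, on the side of CXCL8, were not called in that comparison. With shMETTL3, 1 neighbour was lower (EREG) and 1 higher, ANKRD17 (0.45 ± 0.14, adjusted p 0.0174), a call kept in 5 of 8 fits that left out a library. With shMETTL14, edgeR and DESeq2 each called 0 of the 5 in either direction against shControl, with 0 at an unadjusted p below 0.05. There, EREG was at 0.06 ± 0.14 (adjusted p 0.802), and it was called higher with library size alone (0.43). Between the knockdowns 1 neighbour was higher and 3 lower with shMETTL14 (16.5% and 18.7% of all genes). Against control, 4 were higher with shMETTL3 and 3 with shMETTL14 (20.1% and 19.7% of all genes), and 0 were lower (20.1% and 20.5%).

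**Figure D5:**
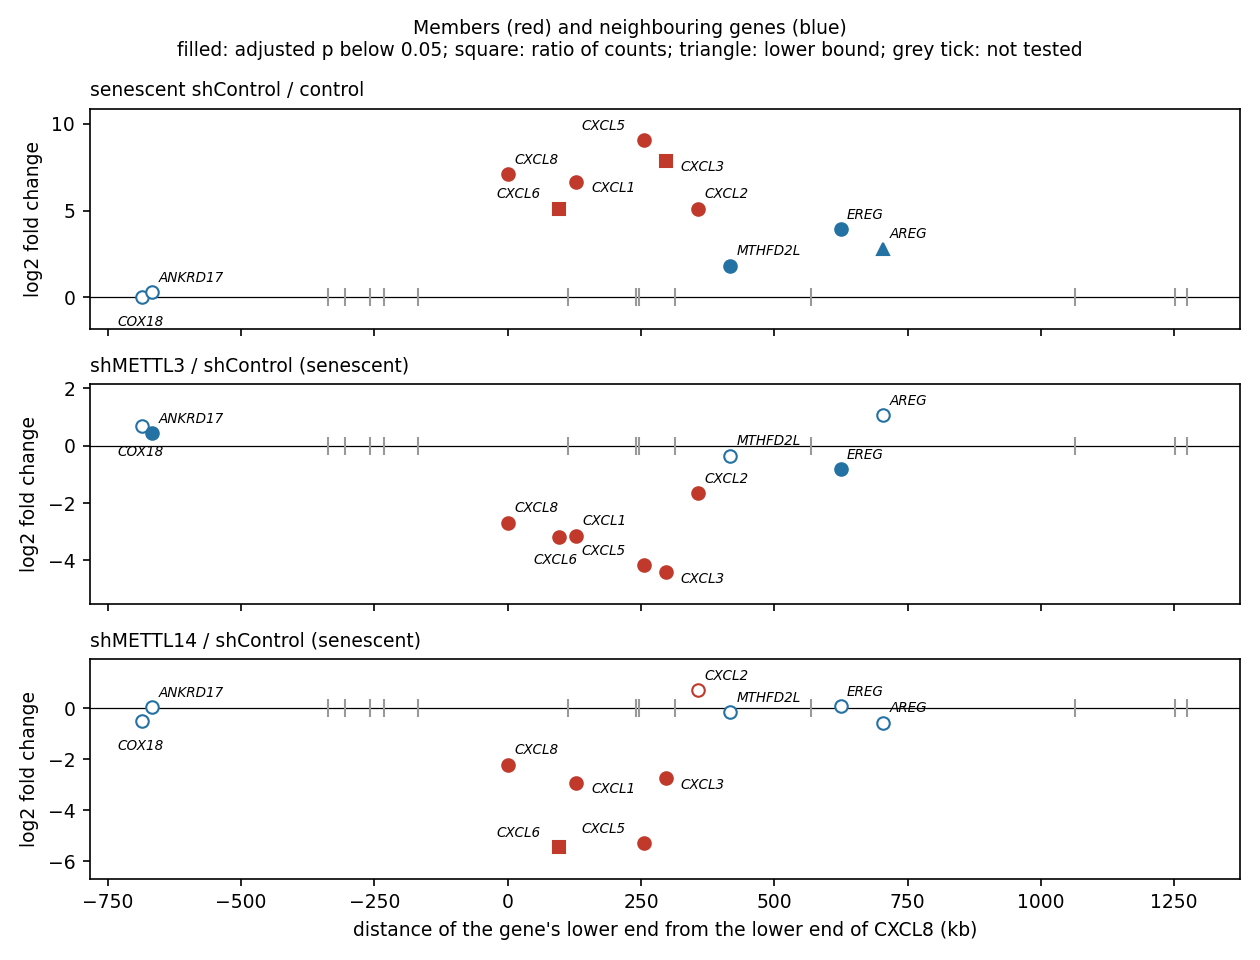
Log2 fold changes of the members (red) and of tested neighbouring genes (blue) by distance in kb from the lower end of CXCL8, in 3 comparisons. Filled marks have an adjusted p below 0.05, squares are ratios of counts where a group has 1 to 3 counts, the triangle is a lower bound, and grey ticks are genes not tested. With shMETTL3 every member lies below the neighbouring genes, and with shMETTL14 every member except CXCL2 does.

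The genes whose pattern was most like the mean of the members over the 8 libraries were, among 6314 compared by Pearson correlation of log2 levels, MMP3 (r 0.990), ITGB1 (0.989), PRKG2 (0.985), PTGS2 (0.982), KLHL42 (0.982), AKAP12 (0.981), EPB41L3 (0.980), VEGFA (0.980), CAPZA1 (0.980) and SH2B3 (0.978). The libraries fall into 4 groups, so these values are a description of likeness and carry no test. Correlation also does not weigh the size of a change. In senescent shControl against control cells the 10 genes had a median of 1.79, against 6.90 for the members. Against shControl it was -0.86 with shMETTL3 and -0.83 with shMETTL14, against -3.15 and -2.85 for the members. KLHL42 had 58 and 61, 70 and 77, 67 and 74, and 67 and 69 counts. By Spearman correlation 1 of the 10, MMP3 (rho 0.976), was still among the closest. MMP3, for the matrix protease stromelysin, had 2 and 3 counts in control, 5581 and 5385 in shControl, 179 and 173 in shMETTL3 and 604 and 505 in shMETTL14 libraries. PTGS2, for the prostaglandin synthase COX-2, had 13 and 24, 1434 and 1470, 288 and 317, and 208 and 180 counts. In both, as in the members other than CXCL2, the senescent shControl libraries were the highest and the control libraries the lowest, CXCL6 excepted, whose shMETTL14 and control libraries overlapped.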

How the data were processed

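The authors aligned fastGRO-seq reads to hg19 and deposited raw counts per gene body from HOMER; the other deposited column used, per the file headers, was gene length in bases. All 8 libraries were analysed as 4 groups of 2 in 1 fit with edgeR 4.0.16 in R 4.3.3: TMM normalization, filterByExpr with a minimum count of 10, a quasi-likelihood test of 6 comparisons, and Benjamini-Hochberg adjustment over 12844 genes with a threshold of 0.05. Levels are counts scaled to the mean effective library size. Alternatives were DESeq2 1.42.0, library size alone, upper quartile, other filters and thresholds, ribosomal RNA genes removed, only the groups compared, a replicate block, and each library left out in turn; a group left with 1 library is assumed to vary like the others. The code was tested on simulated data, where DESeq2 found fewer low-count changes than edgeR. Members and gene lists, which the text describes by counts and named examples, were chosen with earlier results of these data known. Promoter motifs were chosen after the promoters were seen. Figures were drawn with matplotlib 3.10.9.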

Additional observations from a re-analysis of the deposited data

Results flagged for a closer look

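A direct test of shMETTL14 against shMETTL3 found a difference in 4 members. It also found one in BIRC3, JUN, FAP and FN1, 4 genes of the other lists that were called in opposite directions against senescent shControl cells. Opposite calls against the same libraries all but fix this difference in advance, so it is no further support. Other listed genes differed too, such as 11 of 12 NF-kappaB genes, higher with shMETTL14 in the direct test. Of all genes tested, 16.5% were called higher and 18.7% lower with shMETTL14 in this test. The log2 fold change of CXCL2 was 2.34 (between 1.76 and 3.51 with each library left out), and that of CXCL3 was 1.66 (1.10 to 2.58). That of CXCL5 was -1.13 (-1.97 to -0.61), with CXCL5 lower with shMETTL14. That of CXCL8 was 0.45 (0.28 to 0.69), called in 6 of 8 fits that left out a library. BIRC3 differed by 2.27 (2.00 to 2.67) and JUN by 1.44 (1.21 to 1.76), both higher with shMETTL14, and the calls of BIRC3 with shMETTL3 and of JUN with shMETTL14 against shControl were each lost under other settings. The fibroblast markers FAP, at -1.60 (-2.02 to -1.29), and FN1, at -1.08 (-1.25 to -0.94), were lower with shMETTL14. Against shControl the calls of FAP held in 8 of 8 such fits with shMETTL3 and in 7 of 8 with shMETTL14, those of FN1 in 6 and 5, and library size alone ended both calls with shMETTL14. What sets the knockdowns apart was not tested.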

How the results depend on the processing

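Of 613 values of members under alternatives, 597 kept their side of the threshold, 8 lost the call, 8 gained one and 0 were counted as reversed. Values that were not called did not all keep their sign. That of CXCL1 between the knockdowns ran from -0.01 to 0.48 with each library left out. When libraries were scaled by size alone, the median log2 fold change of all genes moved to -0.53 (senescent shControl against control), 0.58 (shMETTL3 against shControl), 0.35 (shMETTL14 against shControl), -0.25 (shMETTL14 against shMETTL3), 0.07 (shMETTL3 against control) and -0.14 (shMETTL14 against control), and 13%, 93.7%, 81.7%, 25.2%, 58.8% and 37.2% of calls were higher, against 50.1%, 52.3%, 43.2%, 46.9%, 50% and 49.0%. Upper quartile scaling moved the median of shMETTL3 against control to -0.13. Library size includes ribosomal RNA counts, so scaling by size alone also follows their share. That share was 89.9% and 89.9% in control, 92.5% and 92.1% in shControl, 88.4% and 86.2% in shMETTL3, and 90.4% and 91.3% in shMETTL14 libraries. A call lost or gained with size alone can thus reflect this share and not the gene. Which scaling is nearer the cells' totals was not tested.

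Comparisons are numbered 1 to 6 in the order just given. Size alone called 752 higher and 5015 lower of all genes in comparison 1, 5287 and 353 in 2, 3163 and 709 in 3, 1177 higher in 4, and 1 member, CXCL2, higher with shMETTL14 against shControl, as did no filter (1) and a fit of the groups compared alone (1). It reversed MAP3K7 (-0.00597) and VIM (-0.0535) in senescent shControl against control, and VIM (0.35) with shMETTL14 against shControl. DESeq2 called 908 lower in comparison 1, 971 higher and 727 lower in 2, 568 and 951 in 3, 1212 higher in 4 and 1586 lower in 5. Adjusted p below 0.01 left 1045 lower, 964 and 788, 626 and 945, and 1328 higher in comparisons 1 to 4. A log2 fold change of at least 1 left 885 and 915, 595 and 688, 516 and 750, 1103 and 1097, 1339 and 1592, and 1345 and 1652. With at least 10 counts in every library CXCL8 was the 1 member tested, so that members higher were 1 in comparisons 1, 4, 5 and 6, and lower were 1 in comparisons 2 and 3 and 0 in 4. A fit of shMETTL3 and control alone tested 3 members and called 3 higher. Other causes were not tested.

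With each library left out, calls over all genes, higher then lower, ran from 1066 to 2146 and 763 to 2145, 769 to 1932 and 723 to 2060, 486 to 1645 and 784 to 1930, 995 to 2697 and 1409 to 2712, 1929 to 2897 and 1834 to 3083, and 1806 to 3053 and 1738 to 3082. Members higher ran from 0 to 1 with shMETTL14 against shControl, 2 to 3 between the knockdowns (lower, 1 to 2) and 5 to 6 with shMETTL3 against control.

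Replicates share a number, and no label says that they are paired. Deviations with the same number correlated over genes at between -0.04 and 0.10, and with a replicate block the members called were 6, 6, 5, 4, 5 and 5, as without it.

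The members' share of all counts, ribosomal RNA included, was 0.000322% in control, 0.0379% in shControl, 0.00697% in shMETTL3 and 0.00759% in shMETTL14 cells. Ordering members by counts kept 6, 6, 4 and 6 of 6 places in the groups, and Spearman correlation kept 1 of the 10 genes most like the members. Depth limits CXCL6, CXCL3 and CXCL2 in control cells, at 3, 3 and 4 counts.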
